A study of Mus musculus with 6 samples.

Results

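Tight junction genes were compared between *Cxcl12*DsRed- cTEC and *Cxcl12*DsRed+ cTEC of the mouse thymus. The genes were 32 chosen by name and matched by gene ID: 19 claudins, the claudin-like *Cldnd1*, 3 occludin-type MARVEL genes, 2 angulins, 3 junctional adhesion molecules and 4 genes of the cytoplasmic plaque. All 32 were found among the 39179 genes of the count table. A filter on low counts left 15576 genes to test, and 26 of the 32 passed it. The 6 that did not were *Cldn6*, *Cldn14*, *Cldn16*, *Cldn18*, *Cldn19* and *Cldn20*.

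Each of 3 experiments, A, B and C, gave 1 library of *Cxcl12*DsRed- cTEC and 1 library of *Cxcl12*DsRed+ cTEC, which made 6 libraries of polyA RNA. Both subsets came from untreated C57BL/6 mice of 10 weeks that carry the Cxcl12::DsRed knock-in, in which DsRed fluorescence marks cells that use the *Cxcl12* locus. Both were sorted as CD45- EpCAM1+ UEA1- Ly51+ cells, and they differ in the DsRed gate alone. How many mice went into each library is not given in the sources used here.

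Tight junctions seal the space between neighbouring epithelial cells near their apical end. Claudins form the strands, and each claudin either closes the gap or leaves a pore for certain ions or water, so the mix of claudins sets how leaky an epithelium is. Occludin, tricellulin and the angulins shape the strands and the corners where cells meet, junctional adhesion molecules lie beside them, and ZO proteins and cingulin tie the strands to actin. In the thymus, *Cldn3* and *Cldn4* are known as marks of medullary precursors that give rise to Aire+ mTEC, while the cortex is an open epithelial mesh without an apical surface.

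The libraries held 34574900 to 44969195 counts in genes in *Cxcl12*DsRed- cTEC and 38875590 to 51042679 in *Cxcl12*DsRed+ cTEC. The DsRed transcript stood at 21.5, 17.6 and 27.8 CPM (counts scaled to a common library size by TMM) in *Cxcl12*DsRed- libraries and at 859.9, 1322 and 2059 CPM in *Cxcl12*DsRed+ libraries. Here and below, 3 values in a row belong to experiments A, B and C in that order. The *Cxcl12*DsRed- libraries were not closely matched. Their log2 CPM correlation was 0.773 for A with B, and that of A with *Cxcl12*DsRed+ A was 0.765. Among *Cxcl12*DsRed+ libraries the correlation was 0.923 for A with B, 0.872 for A with C and 0.865 for B with C. The *Cxcl12*DsRed- library nearest to the other subset was C. Its chi-square per degree of freedom (lower is closer) was 334 and 325 with its own subset, and 318, 396 and 470 with *Cxcl12*DsRed+ libraries. Across genes, which are not independent replicates, the log2 CPM of the *Cxcl12*DsRed- library of experiment C correlated at 0.822 and 0.769 with the other *Cxcl12*DsRed- libraries and at 0.866, 0.84 and 0.802 with the 3 *Cxcl12*DsRed+ libraries. For all 10 cTEC markers examined the *Cxcl12*DsRed- libraries lay below the *Cxcl12*DsRed+ libraries, where 9.32% of all genes tested did so. Their sums were 2342, 3056 and 2708 CPM in *Cxcl12*DsRed- libraries against 11321, 18433 and 10116 CPM in *Cxcl12*DsRed+ libraries. The 10 and their sums include *Cxcl12* itself, whose reporter set the sort, so its direction follows from the design. Of those 10 markers, 3 passed the test, none was at 0, and *Foxn1*, the transcription factor of the thymic epithelium, stood at 83, 135 and 53.8 CPM in *Cxcl12*DsRed- libraries against 291, 276 and 156 CPM in *Cxcl12*DsRed+ libraries.

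*Cxcl12*DsRed- cTEC held far more mRNA of the barrier claudins *Cldn3* and *Cldn7* than *Cxcl12*DsRed+ cTEC, and far less of *Jam2*. *Cldn3* averaged 309 ± 203 CPM in *Cxcl12*DsRed- cTEC, against 2.03 ± 0.958 CPM in *Cxcl12*DsRed+ cTEC (mean ± SD, n = 3 each). *Cldn7* averaged 199 ± 129 CPM in *Cxcl12*DsRed- cTEC, against 2.81 ± 1.14 CPM in *Cxcl12*DsRed+ cTEC, while *Jam2* averaged 2.06 ± 0.821 CPM in *Cxcl12*DsRed- cTEC, against 228 ± 260.0 CPM in *Cxcl12*DsRed+ cTEC. *Cldn4*, *Cldn2*, *Tjp3* and *Ocln* had group means that differed in the same direction as *Cldn3* but did not pass. *F11r*, *Cldnd1* and *Cldn1*, which were abundant in both subsets, did not pass either, nor did *Tjp1*.

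By the quasi-likelihood test of edgeR, with p-values adjusted by Benjamini-Hochberg over all 15576 genes, 2 tight junction genes were higher in *Cxcl12*DsRed- cTEC (*Cldn3*, *Cldn7*), 1 was lower (*Jam2*) and 23 of those tested did not pass at 0.05. Among all genes tested, 0.449% were higher and 0.173% lower. The likelihood ratio test of edgeR, which uses a less guarded estimate of the spread, called 10 of the 26 higher (*Cldn2*, *Cldn3*, *Cldn4*, *Cldn7*, *Cldn8*, *Cldn9*, *Tjp3*, *Ocln*, *Lsr* and *Ildr1*) where 3.53% of all genes were higher, and *Jam2* lower where 2.12% were lower. When the quasi-likelihood test took the experiment as a block, *Cldn4* and *Cldn7* were higher against 0.334% of all genes, *Jam2* was lower against 0.135%, and *Cldn3* had an adjusted p of 0.0778. At an unadjusted p under 0.05 in the quasi-likelihood test, 15 were higher and 2 lower, where 7.02% of all genes were higher and 4.80% lower.

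Every *Cxcl12*DsRed- library lay above every *Cxcl12*DsRed+ library for 15 of the 26 genes, where 9.73% of all genes tested did so, and below for 2 of the 26, where 9.32% did. The log2 fold change, written throughout as *Cxcl12*DsRed- over *Cxcl12*DsRed+, was positive for 20 and negative for 6 of the 26, with a median of 1.59 against 0.02 over all genes tested. A gene that is near 0 in one subset passes the filter through the other subset alone, so these counts and medians describe the 26 genes and support nothing further. RNA was taken from sorted populations in bulk, so a smaller number of cells that use a gene and less of its RNA per cell cannot be told apart.

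**Figure D1:**
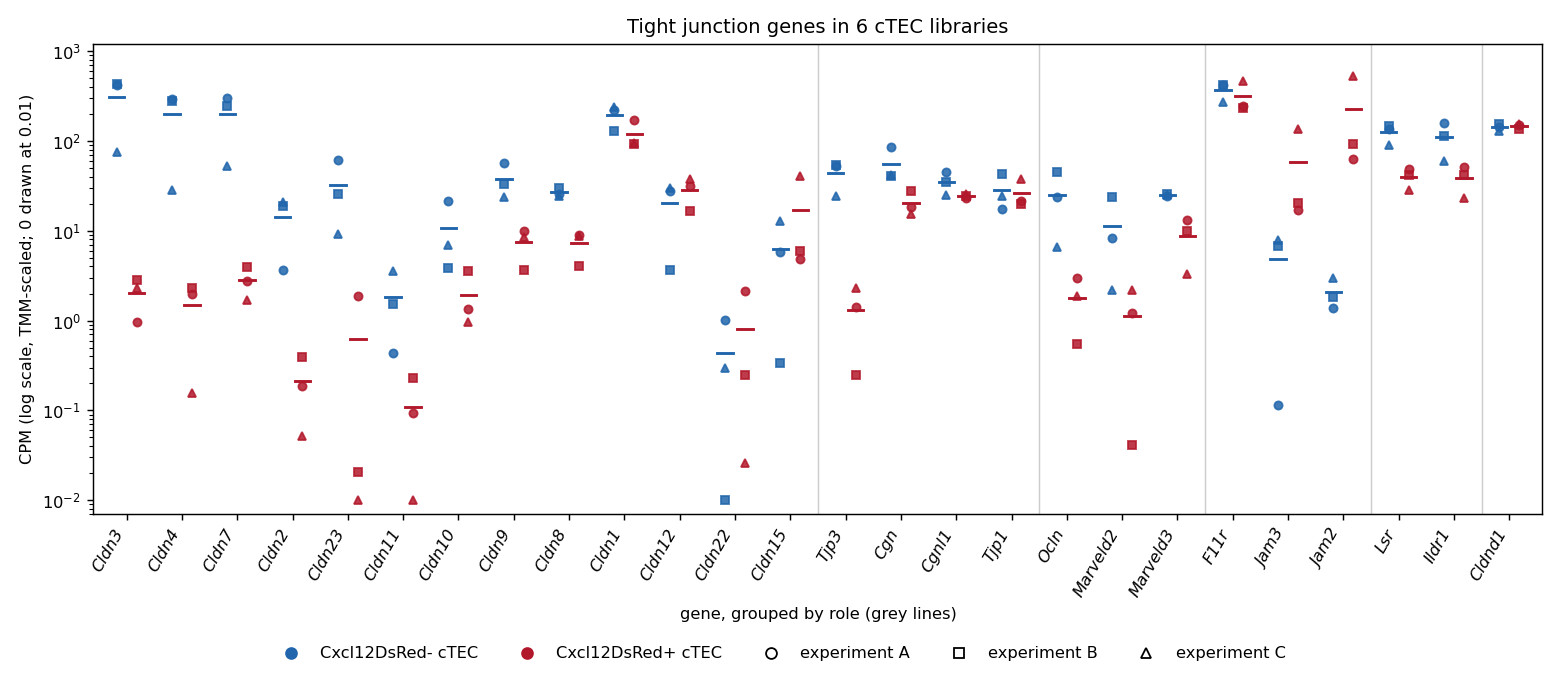
CPM of the 26 tested tight junction genes (vertical log axis, 0 drawn at 0.01) in the 6 libraries, grouped by role. Blue marks are *Cxcl12*DsRed- libraries, red marks are *Cxcl12*DsRed+ libraries, shapes are experiments and bars are the means of 3. *Cldn3*, *Cldn4* and *Cldn7* lie at or above 28.7 CPM in all 3 *Cxcl12*DsRed- libraries and at or below 3.98 CPM in all 3 *Cxcl12*DsRed+ libraries, and *Jam2* lies the other way.

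*Cldn3* encodes a sealing claudin of simple and glandular epithelium. The gene (ENSMUSG00000070473) is a single exon at chr5:134986214-134987472 of GRCm38, plus strand. It had 419.5, 433 and 74.4 CPM in *Cxcl12*DsRed- libraries and 0.964, 2.82 and 2.32 CPM in *Cxcl12*DsRed+ libraries. The groups did not overlap, and the *Cxcl12*DsRed- library of experiment C, the one nearest to the other subset across genes, was the lowest of its subset. The log2 fold change was 7.25 (SE 0.88, adjusted p = 0.0376), and within experiments the log2 ratio was 8.77, 7.26 and 5.0. With the experiment as a block *Cldn3* did not pass (adjusted p = 0.0778). Without the *Cxcl12*DsRed- library of experiment C the log2 fold change was 7.71 (adjusted p = 0.0181), and leaving out any other single library took the adjusted p to between 0.0933 and 0.157, with log2 fold changes of 6.85 to 7.56.

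*Cldn4*, the neighbour of *Cldn3*, encodes a claudin of tight epithelia that hinders the passage of sodium. It is also a single exon (ENSMUSG00000047501, chr5:134945119-134946934, minus strand), 39.3 kb from *Cldn3* on the opposite strand with 0 annotated genes between. It had 294, 281 and 28.7 CPM in *Cxcl12*DsRed- libraries and 1.97, 2.32 and 0.155 CPM in *Cxcl12*DsRed+ libraries, again with no overlap and with experiment C lowest in both subsets. The log2 fold change was 7.07 (SE 1.30) and the adjusted p 0.0723, which missed the threshold, whereas the fit with the experiment as a block gave an adjusted p of 0.0168. The adjusted p was 0.049 without the *Cxcl12*DsRed- library of experiment C and 0.137 to 0.26 without any other single library. The within-experiment log2 ratios were 7.22, 6.92 and 7.54.

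*Cldn7* encodes a claudin that binds EpCAM at the lateral membrane. The gene (ENSMUSG00000018569, chr11:69964779-69967885, plus strand) had 299, 244 and 52.9 CPM in *Cxcl12*DsRed- libraries and 2.74, 3.98 and 1.7 CPM in *Cxcl12*DsRed+ libraries. Experiment C was the lowest in both subsets, as for *Cldn4*, and the groups did not overlap. The log2 fold change was 6.14 (SE 0.77, adjusted p = 0.0391), the log2 ratios within experiments were 6.77, 5.94 and 4.96, and the blocked fit gave an adjusted p of 0.0337. It was 0.0181 without the *Cxcl12*DsRed- library of experiment C and 0.10 to 0.157 without any other single library.

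The promoter windows of *Cldn3*, *Cldn4* and *Cldn7* are shown because these were the most abundant claudins per length in *Cxcl12*DsRed- cTEC, and that of *Cldn1* because it was the leading claudin of *Cxcl12*DsRed+ cTEC. Each runs from 250 bases before to 50 after a RefSeq start on GRCm38.p6, 5′ to 3′ on the strand of the gene. Capitals mark matches on either strand to 4 short motifs, none of which contains another. They are CAGGTG, the E-box to which Snail and Zeb repressors bind, GGGCGG, the GC box known as a site of Sp1, GGAAGT, a core shared by ETS factors, and AACCGGTT, the palindrome that Grainyhead factors read. *Cldn7* has 2 annotated starts and both windows are given.
Cldn3, chr5:134985964-134986263, plus strand: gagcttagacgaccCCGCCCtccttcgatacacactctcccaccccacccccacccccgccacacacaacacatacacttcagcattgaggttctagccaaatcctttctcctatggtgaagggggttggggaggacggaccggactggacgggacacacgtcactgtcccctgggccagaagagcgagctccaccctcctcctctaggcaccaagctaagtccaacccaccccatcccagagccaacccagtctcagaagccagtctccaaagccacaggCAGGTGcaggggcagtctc
Cldn4, chr5:134946885-134947184, minus strand: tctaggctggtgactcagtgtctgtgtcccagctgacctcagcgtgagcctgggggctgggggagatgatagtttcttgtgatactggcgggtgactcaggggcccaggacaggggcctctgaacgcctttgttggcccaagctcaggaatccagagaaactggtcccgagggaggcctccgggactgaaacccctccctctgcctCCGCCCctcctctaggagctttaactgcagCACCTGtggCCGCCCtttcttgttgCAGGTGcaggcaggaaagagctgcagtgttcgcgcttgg
Cldn7 first start, chr11:69964529-69964828, plus strand: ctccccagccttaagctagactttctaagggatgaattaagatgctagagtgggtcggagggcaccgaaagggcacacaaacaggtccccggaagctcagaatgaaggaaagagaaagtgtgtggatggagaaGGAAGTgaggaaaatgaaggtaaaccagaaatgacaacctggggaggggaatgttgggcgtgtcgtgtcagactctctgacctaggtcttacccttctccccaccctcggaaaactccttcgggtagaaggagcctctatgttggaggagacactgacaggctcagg
Cldn7 second start, chr11:69965171-69965470, plus strand: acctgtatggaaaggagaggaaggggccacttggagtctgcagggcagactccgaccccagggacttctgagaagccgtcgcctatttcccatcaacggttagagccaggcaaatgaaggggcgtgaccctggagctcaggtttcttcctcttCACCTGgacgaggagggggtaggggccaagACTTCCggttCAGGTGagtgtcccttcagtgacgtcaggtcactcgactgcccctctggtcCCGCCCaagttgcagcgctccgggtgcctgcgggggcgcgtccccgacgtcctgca
Cldn1, chr16:26371790-26372089, minus strand: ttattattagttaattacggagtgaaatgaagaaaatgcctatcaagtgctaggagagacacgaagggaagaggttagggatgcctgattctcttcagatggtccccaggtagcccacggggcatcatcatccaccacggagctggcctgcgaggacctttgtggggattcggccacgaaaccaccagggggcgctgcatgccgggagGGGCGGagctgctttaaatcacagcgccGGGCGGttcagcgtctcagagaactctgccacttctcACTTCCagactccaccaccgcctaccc

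Windows were found for 26 of the 32 genes, 37 windows in all. Windows of the same gene can overlap, so a site can be counted more than once, as happened for an E-box of *Marveld2* and of *Ocln*. The E-box letters stood in 14 of the 37 windows (37.8%), in 11 genes (*Cldn3*, *Cldn4*, *Cldn6*, *Cldn7*, *Cldn14*, *F11r*, *Ildr1*, *Lsr*, *Marveld2*, *Ocln* and *Tjp3*), against 20.2% of the 32851 windows of all genes. The windows of *Cldn1*, *Cldn2*, *Cldn10*, *Cldn11* and *Cgn* were among those that held 0 of them. The GC box letters stood in 22 windows (59.5%) against 35.7% of all, the ETS letters in 8 (21.6%) against 23.8%, and the Grainyhead letters in 0 against 0.146%. The windows of these genes were also richer in G and C, at a median of 59% against 52.7% in all windows. These are matches of letters with no measure of binding, and no test was made on them.

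Transcripts of different claudins were compared per kilobase of exon, the scale on which genes of unequal length can be set side by side. On that scale the 19 claudins summed to 802, 709 and 208 CPM per kb in *Cxcl12*DsRed- libraries and to 63.3, 37.8 and 60.5 CPM per kb in *Cxcl12*DsRed+ libraries. *Cldn3*, *Cldn4* and *Cldn7* together, a trio picked after their values were seen, made up 80.8, 88 and 49.1% of that sum in *Cxcl12*DsRed- libraries and 5.14, 14.7 and 4.63% in *Cxcl12*DsRed+ libraries. Thus experiment C had the smallest share of the trio in both subsets, and the subsets did not overlap. *Cldn1*, the claudin of the epidermal barrier, made up 5.7, 3.77 and 23.7% in *Cxcl12*DsRed- libraries and 56.5, 50.9 and 32.1% in *Cxcl12*DsRed+ libraries.

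**Figure D2:**
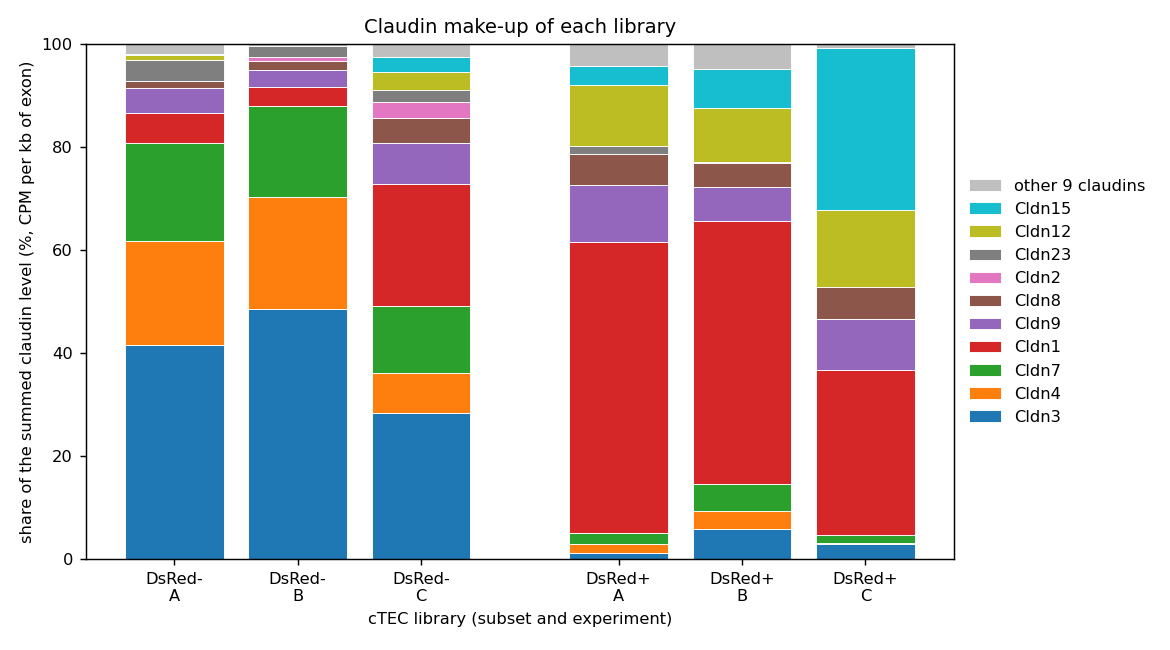
Share of each claudin in the summed claudin level of a library (vertical axis, percent of CPM per kb of exon), with *Cxcl12*DsRed- libraries on the left and *Cxcl12*DsRed+ libraries on the right. *Cldn3*, *Cldn4* and *Cldn7* hold 80.8, 88 and 49.1% in *Cxcl12*DsRed- libraries A, B and C, and *Cldn1* is the largest share in each *Cxcl12*DsRed+ library, at 56.5, 50.9 and 32.1% in A, B and C.

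On its own scale, not as a share, *Cldn1* stood at 221, 129.5 and 239 CPM in *Cxcl12*DsRed- libraries and 173, 93 and 94.2 CPM in *Cxcl12*DsRed+ libraries. The groups overlapped, and the log2 fold change of 0.71 (SE 0.35) had an adjusted p of 0.514. *Cldn15*, an intestinal claudin that lets sodium through, took 31.6% of the summed claudin level in the *Cxcl12*DsRed+ library of experiment C. It had 5.8, 0.335 and 12.7 CPM in *Cxcl12*DsRed- libraries and 4.88, 5.96 and 40.6 CPM in *Cxcl12*DsRed+ libraries, a log2 fold change of -1.45 (SE 1.31) that did not pass and that was 0.19 without the *Cxcl12*DsRed+ library of experiment C. *Cldn12*, which differs from most claudins in lacking the tail that binds ZO proteins, had 27.5, 3.62 and 29.6 CPM in *Cxcl12*DsRed- libraries and 31.4, 16.8 and 38 CPM in *Cxcl12*DsRed+ libraries, with overlap.

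Among the claudins that form pores, *Cldn2*, which lets sodium and water through in leaky epithelia, had 3.69, 18.7 and 20.8 CPM in *Cxcl12*DsRed- libraries and 0.189, 0.396 and 0.0515 CPM in *Cxcl12*DsRed+ libraries. Here experiment A, not C, was the lowest of the *Cxcl12*DsRed- libraries. The log2 fold change was 6.06 (SE 1.17, adjusted p = 0.0833). *Cldn10*, which exists in forms that favour cations or anions, had 21.5, 3.8 and 6.91 CPM in *Cxcl12*DsRed- libraries and 1.36, 3.52 and 0.953 CPM in *Cxcl12*DsRed+ libraries, with a log2 fold change of 2.46 (SE 0.96, adjusted p = 0.38). The groups did not overlap, but the lowest *Cxcl12*DsRed- library and the highest *Cxcl12*DsRed+ library, both of experiment B, lay close together.

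*Cldn9*, needed for hearing, had 56.3, 33.1 and 23.7 CPM in *Cxcl12*DsRed- libraries and 10.1, 3.67 and 8.61 CPM in *Cxcl12*DsRed+ libraries, and its log2 fold change was 2.34 (SE 0.54, adjusted p = 0.113). *Cldn8*, a partner of *Cldn4* in the kidney collecting duct, had 25.9, 30.1 and 24.4 CPM in *Cxcl12*DsRed- libraries and 8.88, 4.03 and 8.84 CPM in *Cxcl12*DsRed+ libraries, with 1.89 (SE 0.45, adjusted p = 0.125). Both were present in every library, the groups did not overlap, and neither passed. *Cldn23*, a claudin of intestinal epithelium, had 60.7, 25.8 and 9.25 CPM in *Cxcl12*DsRed- libraries and 1.87, 0.0209 and 0 CPM in *Cxcl12*DsRed+ libraries, and its log2 fold change of 5.64 came with an SE of 1.91 and an adjusted p of 0.293.

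*Cldn11*, known from myelin and the Sertoli cells of the testis, was low throughout, with 0.439, 1.52 and 3.54 CPM in *Cxcl12*DsRed- libraries and 0.0945, 0.229 and 0 CPM in *Cxcl12*DsRed+ libraries (log2 fold change 4.04, SE 1.62, adjusted p = 0.394). *Cldn6*, a claudin of embryonic epithelia, lies 137 bases from *Cldn9* on chromosome 17. It had 404, 0 and 40 counts in *Cxcl12*DsRed- libraries and 0 in each *Cxcl12*DsRed+ library. Nearly all of its counts thus came from experiment A, and the *Cxcl12*DsRed- library of experiment B was at 0 like the *Cxcl12*DsRed+ libraries, so no fold is given. It did not reach the filter of the quasi-likelihood test. The longest reading frames of *Cldn6* and *Cldn9* are 75.4% identical with a shared run of 37 bases, and those of *Cldn3* and *Cldn4* are 73.1% identical with a run of 35.

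The remaining claudins were at or near 0. *Cldn16* and *Cldn20* had 0 counts in all 6 libraries, which allows up to 3 counts in each. *Cldn14* had 1 count in *Cxcl12*DsRed- libraries and 2 in *Cxcl12*DsRed+ libraries. *Cldn19*, of the kidney, had 0 counts in *Cxcl12*DsRed- libraries and 4 in *Cxcl12*DsRed+ libraries, and *Cldn18*, the claudin of lung and stomach, had 0 in *Cxcl12*DsRed- libraries and 0, 25 and 1 in *Cxcl12*DsRed+ libraries. *Cldn22* had 44, 0 and 12 counts in *Cxcl12*DsRed- libraries and 114, 12 and 1 in *Cxcl12*DsRed+ libraries, most of them in experiment A in both subsets. Its exon lies wholly within exons of *Wwc2* on the opposite strand, and since the use of strand in the counting is not given in the sources used here, reads of the 2 genes may not have been separated.

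*Tjp3* encodes ZO-3, a plaque protein that binds claudin tails. It had 52.4, 54.2 and 24.4 CPM in *Cxcl12*DsRed- libraries and 1.4, 0.25 and 2.32 CPM in *Cxcl12*DsRed+ libraries. The groups did not overlap, and the log2 fold change was 5.05 (SE 0.87), with an adjusted p of 0.0674, 3.18e-06 in the likelihood ratio test and 0.16 with the block. *Tjp1*, for ZO-1, had 17.6, 43.1 and 24.3 CPM in *Cxcl12*DsRed- libraries and 21.3, 19.9 and 38 CPM in *Cxcl12*DsRed+ libraries, overlapping, with a log2 fold change of 0.10 (SE 0.45). Whether the 2 ZO genes differ in their response was not tested.

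Cingulin, encoded by *Cgn*, links the plaque to actin and myosin. *Cgn* had 85.8, 40.3 and 41.3 CPM in *Cxcl12*DsRed- libraries and 18.3, 28 and 15.3 CPM in *Cxcl12*DsRed+ libraries, without overlap (log2 fold change 1.44, SE 0.41, adjusted p = 0.199). Its relative *Cgnl1*, or paracingulin, had 44.6, 35 and 25.3 CPM in *Cxcl12*DsRed- libraries and 23.4, 24.5 and 25.9 CPM in *Cxcl12*DsRed+ libraries, with overlap in experiment C and a log2 fold change of 0.51 (SE 0.30).

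Of the MARVEL genes, *Ocln* encodes occludin of the strands between pairs of cells. It had 24, 44.6 and 6.62 CPM in *Cxcl12*DsRed- libraries and 2.99, 0.542 and 1.86 CPM in *Cxcl12*DsRed+ libraries, a log2 fold change of 3.80 (SE 0.95, adjusted p = 0.14). *Marveld2*, for tricellulin at the corners of 3 cells, lies 43.2 kb from *Ocln* on chromosome 13. It had 8.36, 23.5 and 2.16 CPM in *Cxcl12*DsRed- libraries and 1.21, 0.0417 and 2.16 CPM in *Cxcl12*DsRed+ libraries, so that the libraries of experiment C had about the same level (log2 fold change 3.32, SE 1.46, adjusted p = 0.445). In both genes experiment B had the highest *Cxcl12*DsRed- value and the lowest *Cxcl12*DsRed+ value. *Marveld3* was even among *Cxcl12*DsRed- libraries at 24.5, 25.6 and 25.3 CPM, against 13, 9.87 and 3.27 CPM in *Cxcl12*DsRed+ libraries (log2 fold change 1.53, SE 0.55, adjusted p = 0.333).

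The angulins bring tricellulin to those corners. *Lsr*, for angulin-1, had 137, 147 and 90.9 CPM in *Cxcl12*DsRed- libraries and 49.3, 41.3 and 28.3 CPM in *Cxcl12*DsRed+ libraries, with log2 ratios of 1.47, 1.83 and 1.68 within the experiments. All 3 experiments thus gave a ratio of similar size. The log2 fold change of 1.65 (SE 0.30) had an adjusted p of 0.0717 in the quasi-likelihood test and 0.000436 in the likelihood ratio test. Of the *Lsr* exon bases, 43.6% lie opposite the antisense gene *Gm4673*. That gene had 529 counts in *Cxcl12*DsRed- libraries and 360 in *Cxcl12*DsRed+ libraries, where *Lsr* had 14435 in *Cxcl12*DsRed- libraries and 5686 in *Cxcl12*DsRed+ libraries. *Ildr1*, for angulin-2, had 158, 112 and 59.5 CPM in *Cxcl12*DsRed- libraries and 51.8, 42.3 and 23.3 CPM in *Cxcl12*DsRed+ libraries, with a log2 fold change of 1.49 (SE 0.44, adjusted p = 0.217).

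**Figure D3:**
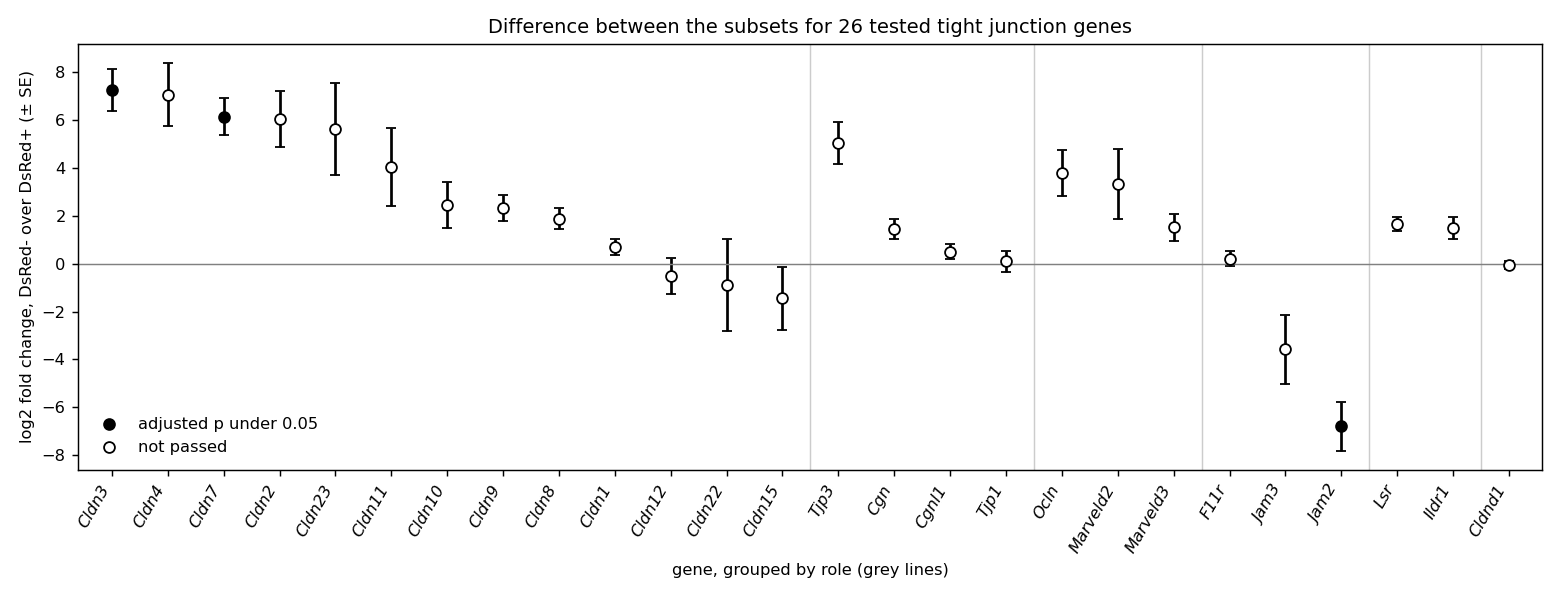
Log2 fold change of the 26 tested tight junction genes, *Cxcl12*DsRed- over *Cxcl12*DsRed+ (vertical axis, points with bars of 1 SE), grouped by role. Filled points passed the quasi-likelihood test at an adjusted p under 0.05, namely *Cldn3* at 7.25, *Cldn7* at 6.14 and *Jam2* at -6.79.

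Of the junctional adhesion molecules, 1 fell and none rose. *Jam2*, for JAM-B, an adhesion molecule known chiefly from endothelium, had 1.39, 1.83 and 2.98 CPM in *Cxcl12*DsRed- libraries and 63.4, 93.5 and 528 CPM in *Cxcl12*DsRed+ libraries. It fell by 6.79 on the log2 scale (SE 1.02, adjusted p = 0.0495), and the *Cxcl12*DsRed+ library of experiment C stood far above the other two. Without that library the log2 fold change was -5.28 (adjusted p = 0.0751), and without any other single library the adjusted p was 0.0866 to 0.205. *Jam3*, for JAM-C, a partner of JAM-B, had 0.115, 6.69 and 7.87 CPM in *Cxcl12*DsRed- libraries and 17.1, 20.6 and 137 CPM in *Cxcl12*DsRed+ libraries, again with no overlap (log2 fold change -3.58, SE 1.44, adjusted p = 0.394). Of its exon bases, 36.2% lie opposite the antisense gene *Gm48796*. *F11r*, for the epithelial JAM-A, had 419, 414 and 273 CPM in *Cxcl12*DsRed- libraries and 247, 234 and 469.6 CPM in *Cxcl12*DsRed+ libraries, overlapping, with a log2 fold change of 0.22 (SE 0.33).

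Most markers of endothelium lay lower in *Cxcl12*DsRed- libraries, as *Jam2* did. Of 13 such genes, 11 had all *Cxcl12*DsRed- libraries below the *Cxcl12*DsRed+ libraries, where 9.32% of all genes tested did so. Of the 13, 1 (*Emcn*) passed the quasi-likelihood test, with 11 lower in the likelihood ratio test, 3 with the block, 10 in DESeq2 and 0 in limma voom. Their summed level was 133, 59.7 and 58.7 CPM in *Cxcl12*DsRed- libraries and 764, 762 and 5790.0 CPM in *Cxcl12*DsRed+ libraries, none was at 0 throughout a subset, and the *Cxcl12*DsRed+ library of experiment C was highest as for *Jam2* and *Jam3*. *Cldn5*, the claudin of endothelium, was not among the 32 but is among these 13 markers and is already part of their counts and sums. It had 0.97, 0.669 and 3.59 CPM in *Cxcl12*DsRed- libraries and 32.2, 42.3 and 268 CPM in *Cxcl12*DsRed+ libraries (log2 fold change -6.03, adjusted p = 0.0867). Of 9 further claudins, *Cldn5* among them, 2 were tested and 0 passed the quasi-likelihood test, while *Cldn5* was the 1 called at an unadjusted p under 0.05, by the likelihood ratio test, with the block and by DESeq2, with 0 in limma voom. The part of endothelial RNA in the values of *Jam2* and *Jam3* was not tested.

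Most markers of tuft cells and of secretory epithelium lay higher in *Cxcl12*DsRed- libraries, as *Cldn3*, *Cldn4* and *Cldn7* did. The claudins *Cldn1*, *Cldn12*, *Cldn15* and *Cldn22* overlapped between the subsets. For each of 12 tuft cell markers the *Cxcl12*DsRed- libraries all lay above the *Cxcl12*DsRed+ libraries, where 9.73% of all genes tested did so. Of the 12, 3 passed the quasi-likelihood test (*Trpm5*, *Chat*, *Gfi1b*), with 11 in the likelihood ratio test, 2 with the block, 12 in DESeq2 and 0 in limma voom. Their sums were 2540.2, 751 and 471 CPM in *Cxcl12*DsRed- libraries and 42.1, 42.7 and 39.1 CPM in *Cxcl12*DsRed+ libraries, where *Il25* was at 0. Of 12 markers of secretory and enterocyte-like epithelium, 10 likewise had no overlap and lay higher in *Cxcl12*DsRed- libraries, against the same 9.73%. Of these 12, 5 passed the quasi-likelihood test, with 9 in the likelihood ratio test, 4 with the block, 9 in DESeq2 and 1 in limma voom. Their sums were 9057, 6579 and 3732 CPM in *Cxcl12*DsRed- libraries and 3975, 3883 and 2327 CPM in *Cxcl12*DsRed+ libraries, and none was at 0 throughout a subset. Both sums, like *Cldn3*, *Cldn4* and *Cldn7*, were lowest among *Cxcl12*DsRed- libraries in experiment C. That library was also the one nearest to the other subset across genes, so a shared lowest value there does not set these genes apart. *Cldn2* was lowest in experiment A instead. The part of tuft or secretory cells in the claudin values was not tested.

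Of 10 mTEC markers, 9 were tested and 0 passed the quasi-likelihood test, with 2 at an unadjusted p under 0.05, 2 in the likelihood ratio test, 1 with the block, 2 in DESeq2 and 0 in limma voom. They summed to 9003, 8704 and 5396 CPM in *Cxcl12*DsRed- libraries and 9055, 10676 and 2580.2 CPM in *Cxcl12*DsRed+ libraries, mostly from *Ccl21a*, and the log2 fold change was positive for 7 of the 9, with a median of 0.91. The summed levels overlapped between the subsets. For 2 of the 9 tested, *Cd80* and *Spink5*, all *Cxcl12*DsRed- libraries lay above the *Cxcl12*DsRed+ libraries, where 9.73% of all genes tested did so. Both were named after their values were seen. *Cd80* had 6.7, 14.9 and 1.82 CPM in *Cxcl12*DsRed- libraries and 0.0189, 0 and 0 CPM in *Cxcl12*DsRed+ libraries (adjusted p = 0.0674, 1.09e-05 in the likelihood ratio test). *Spink5* had 369, 298 and 91.9 CPM in *Cxcl12*DsRed- libraries and 2.82, 4.63 and 0.155 CPM in *Cxcl12*DsRed+ libraries (adjusted p = 0.0717, 0.046 with the block). Both were lowest in experiment C among the *Cxcl12*DsRed- libraries, and the part of mTEC in the claudin values was not tested. *Aire* stood at 0, 16.5 and 0.935 CPM in *Cxcl12*DsRed- libraries against 0, 4.98 and 0 CPM in *Cxcl12*DsRed+ libraries. Fibroblast and leukocyte markers, 11 and 10 genes, had 0 calls each in the quasi-likelihood test, with 2 and 1 at an unadjusted p under 0.05 and 1 each in the likelihood ratio test and in DESeq2, and 0 with the block and in limma voom. Their sums were 4109 to 5105 CPM and 175 to 893 CPM in *Cxcl12*DsRed- libraries, against 2075 to 2264 CPM and 100.4 to 309 CPM in *Cxcl12*DsRed+ libraries.

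**Figure D4:**
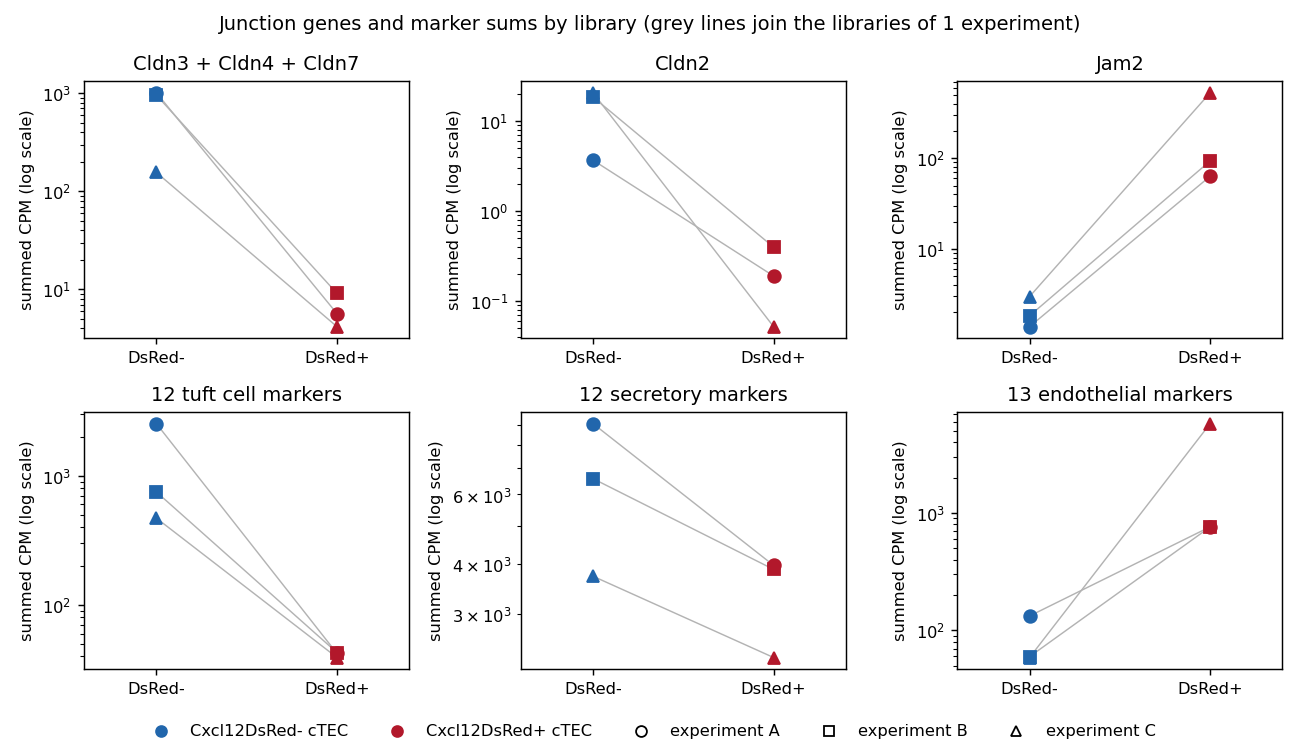
Summed CPM (vertical log axis) of *Cldn3*, *Cldn4* and *Cldn7*, of *Cldn2*, of *Jam2* and of the tuft cell, secretory and endothelial marker lists in each library, with *Cxcl12*DsRed- on the left of each panel, *Cxcl12*DsRed+ on the right and a grey line for each experiment. The tuft cell sum is 2540.2, 751 and 471 CPM in *Cxcl12*DsRed- libraries A, B and C, and the endothelial sum reaches 5790.0 CPM in the *Cxcl12*DsRed+ library of experiment C, where *Jam2* is also highest.

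Of the 26 tested genes, *Cldnd1*, which encodes a claudin-like membrane protein, had the log2 fold change nearest to 0. It had 143, 156 and 129 CPM in *Cxcl12*DsRed- libraries and 151, 135 and 154 CPM in *Cxcl12*DsRed+ libraries (log2 fold change -0.039, SE 0.17). Per kilobase of exon, the order of levels in *Cxcl12*DsRed- cTEC was led by *Cldn3* at 245 ± 161, *F11r* at 138 ± 31.2, *Cldn4* at 111 ± 82.2 and *Cldn7* at 102 ± 66.4 CPM per kb (mean ± SD, n = 3), which do not stand apart beyond their spread. In *Cxcl12*DsRed+ cTEC it was led by *F11r* at 119 ± 49.7, *Cldnd1* at 57.3 ± 4.07, *Jam2* at 37.8 ± 43 and *Cldn1* at 24.8 ± 9.47 CPM per kb (n = 3), where *Cldn3* ranked 16 and *Cldn4* 19 of 32. *Jam2* had 10.5, 15.5 and 87.3 CPM per kb in these libraries, below *Cldn1* in A and B, so its place above *Cldn1* rests on experiment C.

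The wider junction machinery was set beside the 32 genes. Of 34 polarity and other tight junction genes, 33 were tested and 0 passed the quasi-likelihood test, with 5 at an unadjusted p under 0.05, 2 in the likelihood ratio test, 1 with the block, 3 in DESeq2 and 0 in limma voom, and with a median log2 fold change of 0.043. *Cxadr*, an adhesion molecule that also serves as a virus receptor, had 128, 71.5 and 59.3 CPM in *Cxcl12*DsRed- libraries and 20.7, 10.3 and 8.63 CPM in *Cxcl12*DsRed+ libraries (log2 fold change 2.71, SE 0.47, adjusted p = 0.0675, 0.0387 with the block). The polarity kinase gene *Prkcz* had 27.4, 5.45 and 7.9 CPM in *Cxcl12*DsRed- libraries and 0.737, 0.459 and 0.696 CPM in *Cxcl12*DsRed+ libraries (log2 fold change 4.42, adjusted p = 0.0923). *Crb3*, of the apical Crumbs complex, had a log2 fold change of 2.78 (adjusted p = 0.293), and *Arhgap17*, which restrains Cdc42 at junctions, one of -1.01 (adjusted p = 0.30).

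Of 22 transcription factors linked to epithelial junction genes, 20 were tested and 0 passed the quasi-likelihood test, with 7 at an unadjusted p under 0.05, 6 in the likelihood ratio test, 1 with the block, 6 in DESeq2 and 0 in limma voom. *Elf3*, an epithelial ETS factor, had 949, 376 and 153 CPM in *Cxcl12*DsRed- libraries and 40.9, 41.7 and 25.3 CPM in *Cxcl12*DsRed+ libraries (log2 fold change 3.78, SE 0.68, adjusted p = 0.0709). *Ehf*, a close relative, had 267, 113 and 46.4 CPM in *Cxcl12*DsRed- libraries and 4.52, 4.59 and 0.49 CPM in *Cxcl12*DsRed+ libraries (5.47, adjusted p = 0.0827, 0.0387 with the block). *Klf5*, a factor of simple epithelia, had a log2 fold change of 2.33 (adjusted p = 0.134). *Snai1*, for the repressor Snail, had 0.0693, 0.0304 and 0.59 CPM in *Cxcl12*DsRed- libraries and 4.88, 8.97 and 63.7 CPM in *Cxcl12*DsRed+ libraries (-6.78, adjusted p = 0.124), highest in the same *Cxcl12*DsRed+ library as *Jam2*.

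EpCAM, the surface protein of the sort, holds *Cldn7* at the lateral membrane. Of 14 EpCAM and cadherin genes 0 passed the quasi-likelihood test, with 4 at an unadjusted p under 0.05, 3 in the likelihood ratio test, 1 with the block, 3 in DESeq2 and 0 in limma voom. *Epcam* had 179, 184 and 229 CPM in *Cxcl12*DsRed- libraries and 73.8, 131 and 63.6 CPM in *Cxcl12*DsRed+ libraries (log2 fold change 1.14, SE 0.31, adjusted p = 0.168). *St14*, for the protease matriptase that cuts EpCAM, had a log2 fold change of 1.77 (adjusted p = 0.186, 0.0451 with the block), its inhibitor gene *Spint2* one of 0.59 (adjusted p = 0.393) and the adhesion gene *Nectin4* one of 3.15 (adjusted p = 0.112).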

How the data were processed

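RNA was sequenced from 6 libraries of sorted cTEC, 3 per subset. Per the labels and the study's methods, the authors made libraries with a SMARTer Ultra Low Input kit, used Trimmomatic 0.36 for trimming, STAR 2.7.3a for alignment to mm10 and HTSeq in its intersection-nonempty mode for counting, and the deposited values are whole-number counts per gene. Neither the annotation release nor the strand setting is given in the sources used here. The 39277 entries held 39179 genes, 92 spike-in names with 0 counts, 5 summaries and the DsRed reporter, and only genes entered library sizes and tests. Reads in no gene came to 5.87 to 9.35% and ambiguous reads to 1.21 to 1.38% of the counts in genes. Depth was 34574900 to 51042679 counts per library, and floors cover counting error only, since amplified reads are not independent molecules.

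The main test was the quasi-likelihood test of edgeR 4.0.16 (R 4.3.3) for *Cxcl12*DsRed- against *Cxcl12*DsRed+, after filterByExpr at a minimum count of 10 and TMM scaling. The prior count was 0.125, and p-values were adjusted by Benjamini-Hochberg with a threshold of 0.05. CPM are counts relative to the TMM-scaled library size, and the SE was taken from the F statistic. Alternatives were DESeq2 1.42.0, voom in limma 3.58.1, the likelihood ratio test, a block for the experiment in both edgeR tests, RLE factors, no scaling beyond library totals, all genes unfiltered, genes with a mean of at least 1 CPM, and leaving out each experiment or library. DESeq2 gave no adjusted p for 6300 genes, which were left without one. The quasi-likelihood test was also run on simulated counts with 200 changed genes, and its outcome is not given here. Those counts were drawn independently with the fitted spread, so they cannot show how the test handles outlying libraries or mixed cells.

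The experiments named in the labels, A, B and C, were taken as pairs in the log2 ratios within experiments and in the fits with a block. The main test did not use the pairing. Deviations of paired libraries correlated at 0.0106, 0.0778 and 0.0716, those of unpaired libraries at -0.0948 to 0.00374. No library was a duplicate of another (chi-square per degree of freedom 166 to 717).

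GENCODE M21 on GRCm38 gave symbols and coordinates for 37607 IDs, and RefSeq the promoter windows. Protein sequences were not used here. The 32 genes, the other lists and the motifs were chosen with earlier results of these data known. By the rule for named genes, all 32 were named, in full at a mean of 5 CPM or more in either subset, and for each related list those that passed or else the 4 smallest p at that level. Each marker list is given by counts and sums, with some of its genes named, of which *Cd80* and *Spink5* were picked after their values were seen.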

Additional observations from a re-analysis of the deposited data

How the results depend on the processing

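The number of tight junction genes called higher in *Cxcl12*DsRed- cTEC, 2 in the quasi-likelihood test, was 10 in the likelihood ratio test, 11 in that test with the replicate block and 0 in limma voom, all over 26 genes tested. It was 13 in DESeq2 and 4 with no filter, which tested 30 of the 32 and 23188 genes in all, and the 13 included *Cldn6*, which had not passed the filter. The number called lower, 1, was 2 in DESeq2, 2 in the likelihood ratio test with the block and 0 in limma voom. The block in the quasi-likelihood test gave 2 and 1, with *Cldn4* in place of *Cldn3*. Leaving out 1 library or 1 experiment gave 0 to 3 higher and 0 to 1 lower, where the 3 were *Cldn3*, *Cldn4* and *Cldn7*, without the *Cxcl12*DsRed- library of experiment C or without experiment C. Over all genes, 70 were higher and 27 lower. These were 550 and 330 in the likelihood ratio test, 644 and 416 with the block added, 940 and 482 in DESeq2, 122 and 46 with no filter, and 3 and 1 in limma voom, which had 1863 genes at an unadjusted p under 0.05. Leaving out 1 library or experiment gave 0 to 120 higher and 0 to 19 lower. The 0 calls of the quasi-likelihood test without *Cxcl12*DsRed- A or B, *Cxcl12*DsRed+ A or B, or experiment A or B came with 1361 to 1850 genes at an unadjusted p under 0.05. The causes of these differences were not tested.

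Of 465 values of the 26 log2 fold changes under the alternatives, 395 kept their direction and their side of the threshold, 26 lost a call, 34 gained one and 10 changed sign. All that changed sign did so when a library or experiment was left out. *Tjp1* ranged from -0.48 to 0.52 there, *F11r* from -0.071 to 0.76, *Cldnd1* from -0.16 to 0.031, *Cldn15* from -2.48 to 0.19 and *Cldn22* from -2.42 to 1.59. With the longest transcript as the length, *Cldn7* made up 22.1% of the claudin level in *Cxcl12*DsRed- cTEC, against 16.6% with all exons. RLE factors moved the log2 fold changes of all genes by a median of 0.00677 per gene and library totals by a median of -0.0451.

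With 3 libraries per subset, differences of the size seen for *Cldn2*, *Cldn23* or *Marveld2* had SEs of 1.17 to 1.91 on the log2 scale. A count of 0 in a library allows an expected count of up to 3, for counting error only.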
